A study of Mus musculus with 9 samples.

Results

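Macrophages of the synovial lining, taken from mouse hind paws, were compared with macrophages grown from mouse bone marrow across all genes of a deposited count table. The 6 libraries were chosen by their labels, not by any measured value: 3 of lining macrophages (A, B and C) and 3 of bone marrow-derived macrophages (BMDM; G, H and I), of 9 in the series. The other 3 libraries hold macrophages of the synovial interstitium and are not compared here, though they enter the estimate of the spread. Lining macrophages came from healthy mice of the Cx3cr1-GFP strain, in which green fluorescent protein (GFP) reports activity of Cx3cr1, the gene for the fractalkine receptor, and were sorted as cells bearing CD45, CD11b, F4/80 and GFP. BMDM came from marrow of C57BL/6 mice and spent 5 days of culture in MCSF-conditioned medium (MCSF is macrophage colony-stimulating factor). The labels give no age and no sex, and they do not say how many copies of the reporter the mice carried or whether the libraries of a group came from separate animals, pools or aliquots. All p-values therefore measure the spread between these libraries, which may be technical. Tissue of origin, sorting, culture and strain all differ between the groups and cannot be told apart.

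The synovial lining is the thin cell layer at the surface of the membrane that encloses a joint, and its macrophages lie between lining fibroblasts and the fluid of the joint cavity. Tissue macrophages clear dying cells and debris, sense microbes and immune complexes, and secrete matrix and growth factors, and many persist in their tissue by slow local renewal. BMDM are the standard culture model of macrophages: marrow precursors that divide and mature under MCSF, the growth factor that signals through Csf1r. Macrophage identity rests on lineage factors such as PU.1, while tissue-specific genes depend on signals from the niche that are lost in culture.

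Lining libraries A, B and C held 2194920, 11137451 and 2700843 counts and BMDM libraries G, H and I held 22499823, 19427273 and 20975304. Levels below are CPM, counts scaled to the size of the library after TMM (trimmed mean of M values) has corrected that size for the make-up of its RNA. They are listed in the order A, B and C for lining and G, H and I for BMDM. Across genes, which are not independent replicates, the correlation of log2(CPM + 1) was 0.917 to 0.954 between lining libraries, 0.997 to 0.998 between BMDM libraries and 0.791 to 0.826 between the groups. The median coefficient of variation over 8929 genes of at least 10 CPM was 19.5% in lining and 4.40% in BMDM. Xist, the X-inactivation RNA of female cells, had 96.0, 195 and 161 CPM in lining and 0.130, 0.0497 and 0 CPM in BMDM, while the Y-linked Ddx3y had 48.0, 37.0 and 48.8 and 70.3, 65.2 and 63.8 CPM. RNA of both sexes was thus present in each lining library, and the sex of origin differed between the groups. Its part in the results was not tested.

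Of 12610 genes with enough counts to test, 2911 (23.1%) were higher and 2579 (20.5%) lower in lining than in BMDM at an adjusted p under 0.05 (edgeR quasi-likelihood test, Benjamini-Hochberg). At least 4-fold differences made up 1314 higher (10.4%) and 757 lower genes (6.00%). The libraries of the groups did not overlap for 7956 genes (63.1%), 5276 of them called. The median log2 fold change over all genes tested was 0.00, and below a positive log2 value, given ± its standard error (SE, n = 3 libraries a group), is higher in lining. A gene is called higher or lower only where it passed this test. The shares of 23.1% higher and 20.5% lower stand beside every list count below. In bulk RNA, fewer cells of a type and less RNA per cell cannot be told apart, so each level is an average over the sorted or cultured cells.

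**Figure D1:**
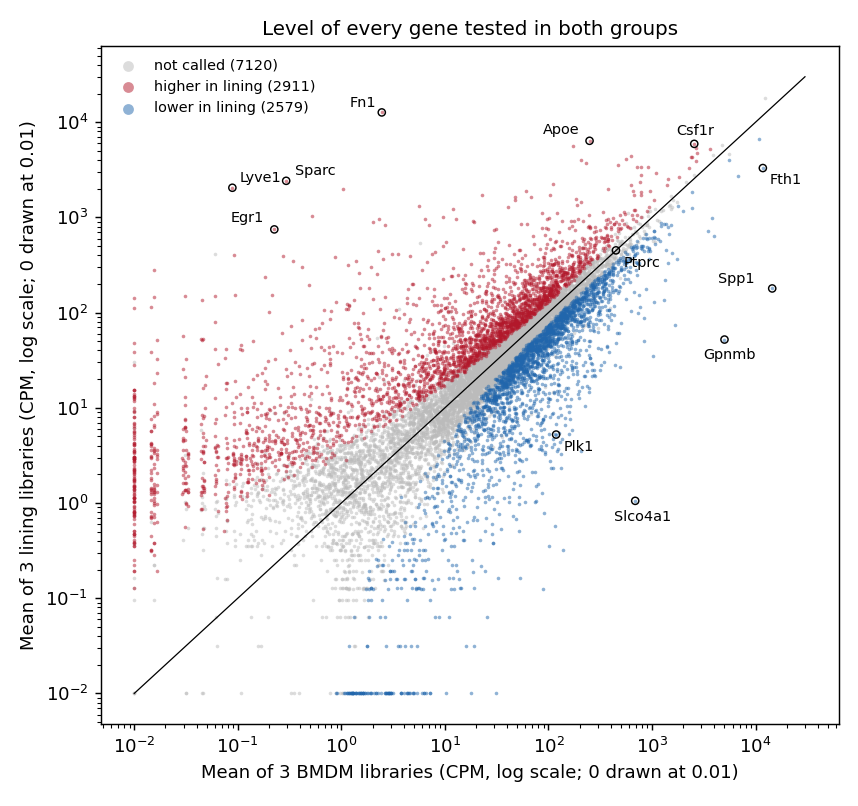
Mean level of each of the 12610 genes tested in the 3 BMDM libraries (horizontal axis, CPM, log scale) and the 3 lining libraries (vertical axis, CPM, log scale), with 0 drawn at 0.01. Red points are the 2911 genes higher in lining, blue points the 2579 lower, grey points were not called, and 12 genes named in the text are circled. Fn1, Lyve1 and Sparc lie far above the line of equal levels and Slco4a1, Gpnmb and Spp1 far below it.

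The genes that defined the sort were present in both groups. Ptprc, which encodes CD45, the surface phosphatase of all leukocytes, had 374, 451 and 527 CPM in lining against 459, 432 and 455 in BMDM. Its libraries overlapped, and it did not pass the test (0.01 ± 0.16, adjusted p = 0.979). Itgam, the CD11b integrin chain, had 353, 264 and 312 CPM in lining against 156, 149 and 168 in BMDM and was 1.96-fold higher in lining (0.97 ± 0.14, adjusted p = 0.000118). Adgre1, which encodes the F4/80 antigen, had 1283, 1222 and 1067 CPM in lining against 701, 692 and 632 in BMDM and was 1.76-fold higher (0.82 ± 0.15, adjusted p = 0.000968). Cx3cr1 had 687, 775 and 663 CPM in lining against 311, 236 and 287 in BMDM and was 2.55-fold higher (1.35 ± 0.21, adjusted p = 0.000296). Since CD45, CD11b, F4/80 and GFP selected the lining cells, the levels of Ptprc, Itgam, Adgre1 and Cx3cr1 there follow in part from the sort. Of 14 sort and identity genes, all tested, 7 were higher and 1 lower, with a median log2 fold change of 0.55. Csf1r, the MCSF receptor, had 6215, 6346 and 5207 CPM in lining against 2587, 2461 and 2627 in BMDM (1.21 ± 0.18, adjusted p = 0.000200). Mertk, a receptor for apoptotic cells (3.31 ± 0.18), and Aif1, an actin-bundling protein of macrophages (2.84 ± 0.39), had the largest differences of the list. Fcer1g, the Fc receptor gamma chain, was the lower member (-0.65 ± 0.12, adjusted p = 0.00108). The gene for PU.1, Spi1, had 423, 393 and 304 CPM in lining against 318, 312 and 306 in BMDM, levels that overlapped, and did not pass (0.26 ± 0.14, adjusted p = 0.147), nor did Tyrobp, the DAP12 adaptor (0.06 ± 0.17, adjusted p = 0.786). Spi1 was called higher with limma-voom and a spread per group or without lining C (adjusted p = 0.0288 to 0.0483). Both groups thus carried the defining transcripts of macrophages.

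The largest differences were genes abundant in lining and near 0 in culture. Lyve1, the hyaluronan receptor of lymphatic vessels and of some tissue macrophages (ENSMUSG00000030787, chromosome 7, 110850607 to 110863239, minus strand), had 2294, 1949.9 and 1902 CPM in lining against 0.216, 0.0497 and 0 in BMDM. Every lining library held it at a high level and each BMDM library at or below 0.216 CPM (14.27 ± 0.45, adjusted p = 1.37e-09). BMDM counts numbered 6, most of them in BMDM G. Without that library the ratio was 83133 (1 BMDM count, 95% counting interval 14919.7 to 3283700.0), and without BMDM I the log2 value was 13.68. Sparc, a secreted collagen-binding glycoprotein (ENSMUSG00000018593, chromosome 11, 55394500 to 55423183, minus strand), had 3229, 2185 and 1854 CPM in lining against 0.216, 0.248 and 0.415 in BMDM, a 7962-fold difference (12.96 ± 0.39, adjusted p = 1.08e-09). Fn1, which encodes the matrix protein fibronectin (ENSMUSG00000026193, chromosome 1, 71585520 to 71653200, minus strand), had 11661, 11290.4 and 15048 CPM in lining against 2.03, 2.43 and 2.90 in BMDM. Its level was even within each group, but the SE of its difference was wide (12.33 ± 1.73, adjusted p = 0.00141) where the interstitial libraries enter the estimate of the spread, and 0.24 with only the 6 compared libraries. Gpr34, a receptor for lysophosphatidylserine (ENSMUSG00000040229, chromosome X, 13632089 to 13640858, plus strand), had 361, 370.1 and 468 CPM in lining against 0.130, 0.0994 and 0.0461 in BMDM (11.91 ± 0.65, adjusted p = 5.61e-07).

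Several of these genes had so few BMDM counts that the fold is a count ratio or a lower bound. Floors and intervals cover counting error only, since reads without molecular identifiers are not independent molecules. Tcim, a small regulator of Wnt signalling (ENSMUSG00000056313, chromosome 8, 24437180 to 24438984, minus strand), had 161, 116 and 155 CPM in lining and 0 in every BMDM library. Against a floor of 3 counts over the group it was at least 2787-fold higher (at least 1794-fold without BMDM G and 1856 without BMDM I). Olr1, the LOX-1 receptor for oxidised lipoprotein (ENSMUSG00000030162, chromosome 6, 129485244 to 129507165, minus strand), had 127, 83.9 and 123 CPM in lining, also 0 in every BMDM library, and was at least 2090.2-fold higher (at least 1346 and 1392 without BMDM G or I). S100b, a calcium-binding protein best known from glia (ENSMUSG00000033208, chromosome 10, 76253853 to 76261159, plus strand), had 393, 250.4 and 204 CPM in lining and 1 count in BMDM, a ratio of 16992 with an interval of 3048 to 671335. It was at least 3773-fold higher without BMDM I, which held that count, and the ratio was 10941 without BMDM G. Timd4, a phosphatidylserine receptor of long-lived tissue macrophages (ENSMUSG00000055546, chromosome 11, 46810800 to 46844332, plus strand), had 139, 83.0 and 122 CPM in lining and 1 BMDM count (6331, interval 1134 to 250210.0, at least 1359 without BMDM G and 4217 without BMDM I). Dpysl3, a cytoskeletal regulator named from neurons, had 154, 155 and 136 CPM and 2 BMDM counts (4921, interval 1361 to 40658, 3278 without BMDM I). In these 5 genes each lining library was at 83.0 CPM or more.

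Retnla, the secreted protein RELM-alpha that interleukin 4 induces (ENSMUSG00000061100, chromosome 16, 48842552 to 48844461, plus strand), was the uneven member of the 10 genes with the largest fold higher. It had 6.79, 11.7 and 424 CPM in lining A, B and C, nearly all of it in C, and 1 count in BMDM I. The ratio of 5412 (interval 969.6 to 213935) became 709.5 without lining C, 15722 without lining B and 3485 without BMDM G, and at least 1202 without BMDM I. Its test was passed at an adjusted p of 0.0186, but its call was lost without BMDM G, BMDM H or BMDM I (highest adjusted p = 0.116) and with limma-voom (adjusted p = 0.3) and with BMDM counts thinned to the lining depth (adjusted p = 0.121). Arg1, another gene that interleukin 4 induces, which encodes arginase, followed the same libraries with 0, 2.86 and 1249 CPM and did not pass (12.48 ± 5.48, adjusted p = 0.116, 4.92 without lining C), but passed without interstitial library F (adjusted p = 0.0434).

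**Figure D2:**
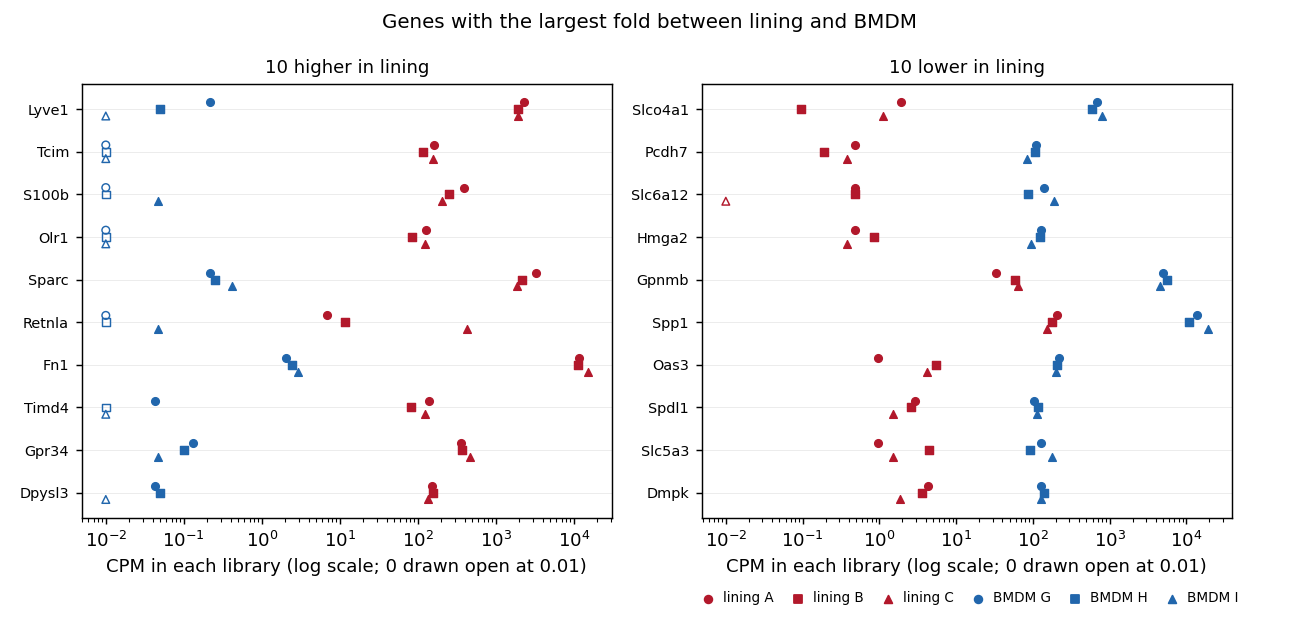
Level in each library (CPM, log scale) of the 10 genes with the largest fold higher (left) and the 10 lower (right) in lining, among called genes whose groups do not overlap and whose higher group averages at least 100 CPM. Red symbols are the 3 lining libraries, blue symbols the 3 BMDM libraries, and open symbols at 0.01 stand for 0. Retnla in lining C, at 424 CPM, stands apart from lining A and B.

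In the other direction, Slco4a1, an organic anion and thyroid hormone transporter (ENSMUSG00000038963, chromosome 2, 180456245 to 180474867, plus strand), had the largest fold lower. It had 1.94, 0.0954 and 1.13 CPM in lining against 683, 586 and 795 in BMDM, with no overlap (-10.20 ± 0.52, adjusted p = 8.53e-08, -11.06 without lining A and -8.89 without lining B). Spp1, which encodes osteopontin, a secreted phosphoprotein of bone and of activated macrophages (ENSMUSG00000029304, chromosome 5, 104435118 to 104441050, plus strand), had 207, 177 and 154 CPM in lining against 13679.7, 10806 and 18959 in BMDM. It was 80.8-fold lower (-6.34 ± 0.57, adjusted p = 3.11e-05). Gpnmb, a transmembrane glycoprotein of lysosomes, had 33.5, 57.9 and 65.0 CPM in lining against 4973, 5536 and 4526 in BMDM and was 95.3-fold lower (-6.57 ± 0.63, adjusted p = 6.11e-05). The protocadherin gene Pcdh7 had 0.485, 0.191 and 0.375 CPM in lining against 109.7, 108 and 83.2 in BMDM (-8.48 ± 0.72, adjusted p = 2.51e-06), a ratio of 237 without lining B (interval 65.7 to 1959.7). Slc6a12, the betaine transporter, had 0.485, 0.477 and 0 CPM in lining against 142, 86.0 and 188 in BMDM (-8.44 ± 0.61, adjusted p = 6.18e-07, ratio 662 without lining B, interval 119 to 26133). Slc5a3, the myo-inositol transporter, had 0.97, 4.49 and 1.5 CPM in lining against 129, 92.3 and 178 in BMDM (-5.45 ± 0.43, adjusted p = 9.84e-07, -6.75 without lining B). Both transporters carry osmolytes and varied together over the BMDM libraries, highest in I and lowest in H. With limma-voom and a spread of its own per group neither passed (adjusted p = 0.176 and 0.110).

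The 4 remaining genes of the 10 were the chromatin protein gene Hmga2, the interferon-induced Oas3, the spindle gene Spdl1 and the kinase gene Dmpk. Hmga2, which marks fetal and proliferating cells, had 0.485, 0.859 and 0.375 CPM in lining against 127, 123 and 95.9 in BMDM (-7.34 ± 0.49, ratio 272 without lining B, interval 75.3 to 2248). Oas3, an antiviral oligoadenylate synthetase, had 0.97, 5.54 and 4.13 CPM in lining against 220.0, 208 and 198 in BMDM (-5.63 ± 0.34, -6.30 without lining B). Spdl1 and Dmpk differed by -5.54 ± 0.38 and -5.30 ± 0.36, with lining at 1.5 to 4.36 CPM and BMDM at 105 to 139.

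A difference in CPM favours long and abundant transcripts, and by that measure the 5 genes furthest above culture were Fn1, Apoe, Timp2, C1qa and Tgfbi. Apoe, the apolipoprotein that carries lipid out of cells, had 8402, 5858 and 4865 CPM in lining against 195, 239 and 314 in BMDM (4.68 ± 0.33, adjusted p = 6.93e-07). Timp2, an inhibitor of matrix metalloproteinases, had 6595, 5388 and 4974 CPM in lining against 176, 165 and 179.9 in BMDM (5.03 ± 0.19, adjusted p = 3.87e-09). C1qa, a chain of the complement recognition protein C1q, had 5177, 4079.9 and 2846 CPM in lining against 200.1, 213 and 210.3 in BMDM (4.28 ± 0.29, adjusted p = 3.87e-07). The groups lay far apart in each of these. Tgfbi, a secreted matrix protein that TGF-beta induces, had 4786, 4590.4 and 3790.2 CPM in lining against 624, 616 and 634 in BMDM (2.81 ± 0.15, adjusted p = 3.39e-08). The 5 genes furthest below culture were Spp1, Gpnmb, Ctsb, and Fth1 and Ftl1, which encode the ferritin chains that store iron. Fth1 had 3738, 3366 and 2794 CPM in lining against 11114, 12257 and 11905 in BMDM (-1.83 ± 0.15, adjusted p = 1.11e-06) and Ftl1 2758, 2926 and 2477 CPM in lining against 6469, 7109.9 and 6612 in BMDM (-1.31 ± 0.15, adjusted p = 2.4e-05). Ctsb, the lysosomal protease cathepsin B, had 7109, 7068 and 5764 CPM in lining against 10830.3, 11148 and 10681 in BMDM (-0.71 ± 0.17, adjusted p = 0.00444).

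Genes that mark resident macrophages in many tissues were higher in lining almost throughout. Of 25 such genes, all tested, 23 were higher and 0 lower, against 23.1% and 20.5% of all genes tested, with a median log2 fold change of 4.04. Beside Lyve1 and Timd4, Vsig4, a complement receptor of tissue macrophages, had 2516, 1771 and 1628 CPM in lining against 1.08, 1.24 and 0.784 in BMDM (10.88 ± 0.47, adjusted p = 3.03e-08). Cd163, the haemoglobin scavenger receptor, had 273, 475 and 502 CPM in lining against 3.29, 2.93 and 3.04 in BMDM (7.07 ± 0.30), and Mrc1, the mannose receptor, 1425, 1667 and 2013 CPM in lining against 88.6, 139.7 and 81.6 in BMDM (4.04 ± 0.28). Pf4, a platelet chemokine that tissue macrophages also make, had 239.6, 344 and 308 CPM in lining against 12.1, 14.9 and 9.04 in BMDM (4.63 ± 0.32). The chemokine gene Ccl24 had 44.1, 44.6 and 64.2 CPM in lining and 3 counts in BMDM, a ratio of 1038 (interval 354 to 5045, 2074 without BMDM I). The 2 members that did not pass were the growth factor gene Igf1 (-0.19 ± 0.15, adjusted p = 0.349) and Marco, a scavenger receptor of lung and spleen macrophages. Marco was at most 1.88 CPM in any library (0.12 ± 1.25, -1.05 without lining C and 0.99 without BMDM G, adjusted p = 0.949).

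A list of 15 genes that the published study of these cells discusses was also read. It was drawn up from that study's account of these samples and is not independent evidence of direction. Of its 14 tested genes 12 were higher and 0 lower (median 4.13). Aqp1, the water channel aquaporin 1, had 734, 1241 and 1138 CPM in lining against 0.519, 0.397 and 0.646 in BMDM (10.92 ± 0.31, adjusted p = 8.98e-10), so that a transcript of 0.646 CPM or less in culture was high in every lining library. Axl, a receptor kinase for apoptotic cells, had 449, 201 and 206 CPM in lining against 154, 121 and 137 in BMDM and did not pass (1.05 ± 0.44, adjusted p = 0.0871), but passed with DESeq2, with limma-voom, with limma-voom and a spread per group, with only the 6 compared libraries, without interstitial library D or without interstitial library F (adjusted p = 0.0174 to 0.0325). F11r, the junctional adhesion molecule A of tight junctions, had 448, 370.2 and 298 CPM in lining against 33.5, 27.7 and 28.6 in BMDM (3.63 ± 0.22, adjusted p = 1e-07). Of 18 tight junction genes 12 were tested, 6 were higher and 2 lower (median 3.04; 23.1% and 20.5% of all genes tested were). The lower members were the cingulin-like gene Cgnl1, with 18.9, 26.9 and 35.3 CPM in lining against 191, 167 and 193 in BMDM (-2.76 ± 0.28), and Tjp3, which encodes ZO-3 (-3.14 ± 0.90, -2.52 without lining B and -4.68 without lining C). The call of Tjp3 was lost without lining B or BMDM I (highest adjusted p = 0.0618).

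Complement genes were measured as recognition, regulation and receptor genes. Of 18 listed genes 16 were tested, 9 were higher and 3 lower (median 2.14; 23.1% and 20.5% of all genes tested were). Beside C1qa and Vsig4, C4b, which encodes complement component 4, had 343, 281 and 290.2 CPM in lining against 0.389, 0.348 and 0.507 in BMDM (9.48 ± 0.61, adjusted p = 2.62e-06), though reads of its near copy may be split or lost. All lining libraries lay above all BMDM libraries for this gene. The lower members were C5ar1, the receptor for the chemotactic fragment C5a, with 312, 329 and 268 CPM in lining against 591, 616 and 631 in BMDM (-1.01 ± 0.20, adjusted p = 0.00150), Cfp, which encodes properdin, a stabiliser of the alternative pathway (-1.91 ± 0.24, adjusted p = 6.06e-05), and the regulator Cd59a (-1.67 ± 0.51). The call of Cd59a was lost without lining B, BMDM G, BMDM H or BMDM I (highest adjusted p = 0.0937) and with BMDM counts thinned to the lining depth (adjusted p = 0.0688).

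Most antigen presentation genes were higher in lining, and their level varied between its libraries. Of 15 genes of class II chains, their regulation and peptide loading, and costimulation, all tested, 14 were higher and 0 lower (median 2.06). With a library left out 11 to 14 were higher. The calls of Cd74, Ciita and H2-DMb2 were lost without BMDM G, BMDM H or BMDM I (highest adjusted p = 0.116). Without lining B the calls of Ciita, H2-DMb2 and H2-DMb1 were lost (highest adjusted p = 0.121). H2-Ab1, a class II beta chain, had 163, 515 and 629 CPM in lining against 30.1, 32.7 and 26.6 in BMDM (3.87 ± 0.64, adjusted p = 0.00197), and H2-Eb1 113, 472 and 487 CPM in lining against 25.7, 26.6 and 25.7 in BMDM (3.79 ± 0.66, adjusted p = 0.00263). Lining A held the lowest value of both, still above every BMDM library. The member that did not pass was H2-Oa, a chain of a protein that restrains peptide loading, with 0 counts in lining and 1.21, 0.994 and 0.876 CPM in BMDM, at least 5.23-fold lower (adjusted p = 0.0761). It was called lower with limma-voom, with limma-voom and a spread per group, with no filter beyond 1 count, with only the 6 compared libraries or without interstitial library F (adjusted p = 0.00862 to 0.04997). The costimulatory genes Cd86, with 131, 129.7 and 103 CPM in lining against 7.70, 8.15 and 9.54 in BMDM (3.84 ± 0.24), and Cd40, with 183, 119 and 121 CPM in lining against 9.77, 10.4 and 10.9 in BMDM (3.76 ± 0.21), did not follow that order, with lining A highest. Markers of conventional dendritic cells, which carry class II, moved in part with these: 4 of 10 tested were higher and 1 lower, their summed level was 14.1, 52.9 and 60.4 CPM in lining A, B and C against 18.8 to 21.0 in BMDM, and Xcr1 was at 0 in lining. Their part in the class II values was not tested.

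Scavenger receptors and lectins bind debris, lipoprotein and microbial sugars. Of 27 genes, all tested, 19 were higher and 2 lower (median 2.98). Mgl2, a galactose-binding lectin, had 21.8, 80.6 and 148 CPM in lining against 0.519, 0.497 and 0.231 in BMDM (7.62 ± 0.97, adjusted p = 0.000590), highest in lining C and 6.97 without it. The lower members were Clec4d, a sensor of mycobacterial lipid, with 30.1, 59.3 and 35.7 CPM in lining against 339, 305 and 329.9 in BMDM (-2.92 ± 0.22, adjusted p = 8.21e-07), and Scarb1, the receptor for high-density lipoprotein, with 84.9, 51.9 and 56.7 CPM in lining against 198, 198 and 199.8 in BMDM (-1.64 ± 0.18, adjusted p = 1.65e-05). Msr1, the class A scavenger receptor, overlapped between the groups (-0.15 ± 0.16, adjusted p = 0.487). Of 20 genes listed under alternative activation, a programme linked to interleukin 4 among other signals, 12 were higher and 1 lower (median 4.05; 23.1% and 20.5% of all genes tested were). The higher members include Mrc1, Cd163 and Fn1. Of the genes that interleukin 4 induces, Arg1 did not pass and the call of Retnla was lost under several settings, as given above. Chil3, a chitinase-like protein of the same programme, had 0, 3.05 and 25.5 CPM in lining and 11.7, 13.2 and 12.1 CPM in BMDM and did not pass (-0.46 ± 1.84, adjusted p = 0.864, -2.45 without lining C).

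Receptors and bridging proteins for the uptake of apoptotic cells were more often higher in lining. Of 22 listed genes 17 were tested, 13 were higher and 1 lower (median 1.29). Mertk had 193, 182 and 158 CPM in lining against 15.3, 20.1 and 18.2 in BMDM (3.31 ± 0.18, adjusted p = 4.13e-08), and Pros1, the gene for protein S, a ligand of Mertk, had 299, 273 and 268 CPM in lining against 25.2, 25.2 and 27.5 in BMDM (3.43 ± 0.16, adjusted p = 1.77e-08). Receptor and ligand were thus both higher. The lower member was Cd300lf, a lipid-binding receptor (-2.70 ± 0.94, adjusted p = 0.0440), and its call was lost without lining A, lining B, lining C, BMDM G, BMDM H or BMDM I (highest adjusted p = 0.124) and with DESeq2 (adjusted p = 0.0589) and with no filter beyond 1 count (adjusted p = 0.108) and with BMDM counts thinned to the lining depth (adjusted p = 0.0641).

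Genes of lipid handling had both directions. Of 24 TREM2 and lipid genes, all tested, 7 were higher and 10 lower (median -0.04; 23.1% and 20.5% of all genes tested were). Of the 24, 20 did not overlap between the groups (63.1% of all genes tested did not). The higher members were Trem2, Cd36, Apoe, Abca1, Nr1h3, Pltp and Ch25h, and the lower ones Lpl, Lipa, Gpnmb, Fabp4, Fabp5, Plin2, Lgals3, Spp1, Pparg and Soat1. The call of Nr1h3 was lost without lining A, lining B, BMDM G, BMDM H or BMDM I (highest adjusted p = 0.115) and with no filter beyond 1 count (adjusted p = 0.0672). Abca1, the cholesterol exporter, had 830.3, 1013 and 852 CPM in lining against 18, 17.4 and 21.9 in BMDM (5.55 ± 0.24, adjusted p = 7.28e-09). Pltp, the phospholipid transfer protein, had 2533, 2431 and 1824 CPM in lining against 110.2, 100.1 and 121 in BMDM (4.36 ± 0.18, adjusted p = 5.82e-09), and Cd36, a fatty acid receptor, 849.7, 834 and 1061 CPM in lining against 231, 246 and 169 in BMDM (2.08 ± 0.26, adjusted p = 4.48e-05). On the lower side Fabp5, a fatty acid carrier, had 12.6, 18.3 and 12.8 CPM in lining against 232, 249 and 265 in BMDM (-4.04 ± 1.02, adjusted p = 0.0166), and its call was lost without BMDM G, BMDM H or BMDM I (highest adjusted p = 0.0575). Pparg, the nuclear receptor of lipid storage, had 1.45, 2 and 3.38 CPM in lining against 30.7, 33.4 and 29.0 in BMDM (-3.78 ± 0.62, adjusted p = 0.000401).

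Lysosome genes moved both ways. Of 34, all tested, 17 were higher and 6 lower (median 0.35; 23.1% and 20.5% of all genes tested were). Ctsf, the gene for cathepsin F, had 147, 109 and 119 CPM in lining against 4.19, 4.57 and 4.24 in BMDM (4.84 ± 0.18), and Ctsk, which encodes the collagen-degrading cathepsin K, had 85.4, 114 and 146 CPM in lining against 11.5, 8.69 and 11.2 in BMDM (3.47 ± 0.27). Acp5, the tartrate-resistant phosphatase that osteoclasts also make, differed by 3.68 ± 0.41. Lower members beside Ctsb included Ctsl, which encodes cathepsin L (-1.10 ± 0.14), Atp6v1a, a subunit of the acidifying proton pump (-1.17 ± 0.14), and the hydrolase genes Gla (-1.10 ± 0.32) and Glb1 (-0.93 ± 0.23). Cathepsins thus differed in sign, with Ctsf and Ctsk higher and Ctsb and Ctsl lower.

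Matrix genes formed a large group higher in lining. Of 28, all tested, 22 were higher, each of them at least 4-fold, and 2 lower (median 5.50). Fn1, Sparc and Tgfbi, given above, are on this list. Col14a1, a fibril-associated collagen, had 164, 155 and 138 CPM in lining against 0.0432, 0.149 and 0.0922 in BMDM (10.51 ± 0.81, adjusted p = 7.07e-06, and a ratio of 2288 without BMDM H), and Vcan, the proteoglycan versican, 386, 294 and 283 CPM in lining against 19.5, 14.0 and 19.9 in BMDM (4.17 ± 0.34, adjusted p = 3.13e-06). Dcn, which encodes decorin, had 32.5, 31.7 and 34.5 CPM in lining and 1 BMDM count, a ratio of 2097 (interval 375 to 83008, 1350.5 and 1397 without BMDM G or I and at least 482 without BMDM H). The lower members were Spp1 and Emilin2, an elastin-interface protein (-0.78 ± 0.16, adjusted p = 0.00194). Fibroblast markers moved with the matrix genes. Of 18 such markers 17 were tested and 15 were higher, and their summed level was 301, 314 and 429.5 CPM in lining A, B and C against 14.0 to 16.8 in BMDM. Col1a2, a chain of the main fibroblast collagen, had 50.4, 44.0 and 35.7 CPM in lining against 0.476, 0.994 and 0.830 in BMDM (5.81 ± 0.33), and Col3a1 17.0, 35.8 and 69.5 CPM in lining against 0.476, 0.397 and 0.0922 in BMDM (6.93 ± 0.60, 6.34 without lining C). Prg4, which encodes lubricin, the product of lining fibroblasts, had 15.0, 37.8 and 105 CPM in lining A, B and C and 3 BMDM counts, a ratio of 1005 (interval 343 to 4886). Lining C was the highest of its group, and for Prg4 its call was lost with limma-voom (adjusted p = 0.185). Mmp3, another fibroblast product, had 0, 0.0954 and 0 CPM in lining. Their part in the values of Dcn and the fibrillar collagens was not tested.

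Proteases of the matrix and their inhibitors had both directions. Of 17 listed genes 16 were tested, 8 were higher and 2 lower (median 2.10; 23.1% and 20.5% of all genes tested were). Mmp2, a gelatinase, had 225, 132 and 101 CPM in lining against 0.346, 0.199 and 0.0922 in BMDM (9.39 ± 0.48, adjusted p = 3e-08), and Mmp14, the membrane enzyme that activates it, 148, 92.6 and 80.7 CPM in lining against 0.562, 0.596 and 0.876 in BMDM (7.28 ± 0.76, adjusted p = 5.73e-05). Their inhibitor Timp2 was higher as well, as given above. Adamtsl2, a secreted protein of fibrillin fibres, had 53.8, 28.3 and 34.2 CPM in lining and 1 BMDM count, a ratio of 2132 (interval 381 to 84358, at least 457 without BMDM G and 1419.7 without BMDM I). Adamts1, a proteoglycan-cleaving enzyme, differed by 5.43 ± 1.08. Lower were Mmp8, the neutrophil collagenase, with 0 counts in lining and 10.4, 13.5 and 7.10 CPM in BMDM, at least 52.0-fold lower (at least 16.2 without lining B), and Adam8, a sheddase, with 18.9, 40.7 and 163 CPM in lining against 1736, 1701 and 1549 in BMDM (-4.50 ± 1.46, adjusted p = 0.0466, -5.75 without lining C). The call of Adam8 was lost without lining A, lining B, BMDM G, BMDM H or BMDM I (highest adjusted p = 0.109) and with no filter beyond 1 count (adjusted p = 0.0697).

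Of 18 osteoclast genes listed 14 were tested, 6 were higher and 1 lower (median 0.54; 23.1% and 20.5% of all genes tested were). Under other settings up to 4 were lower, among them the fusion gene Dcstamp, whose values are given at the end. Ctsk and Acp5, given above, and Mmp9, with 2.42, 26.9 and 42.1 CPM in lining against 0.951, 0.795 and 1.29 in BMDM (4.57 ± 0.76), were higher, as was Tnfrsf11a, which encodes RANK, the receptor that starts osteoclast formation, with 194, 199 and 159.9 CPM in lining against 92.2, 90.9 and 85.5 in BMDM (1.04 ± 0.22). Spp1 was the lower member, and Calcr, the calcitonin receptor of mature osteoclasts, was at 0 in both groups. Of 17 hyaluronan genes 8 were tested, and Lyve1, Stab1, with 2450.2, 3598 and 2741 CPM in lining against 1139, 1116 and 1011 in BMDM (1.43 ± 0.21), and Vcan were higher. Lower was Hmmr, whose product is also a spindle protein, with 1.45, 4.68 and 4.88 CPM in lining against 125, 119.6 and 126 in BMDM (-4.94 ± 0.66, adjusted p = 0.000277). The hyaluronan receptor Cd44 overlapped between the groups (0.42 ± 0.50, adjusted p = 0.534).

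Integrin genes, of which 16 of 17 were tested, had 5 higher and 4 lower members (median 0.44), near the shares over all genes tested (23.1% higher and 20.5% lower). Itga9, a chain that binds matrix proteins, had 112, 129 and 112 CPM in lining against 1.25, 1.54 and 0.784 in BMDM (6.62 ± 0.26, adjusted p = 3.87e-09). Itgb5 (1.63 ± 0.17), which pairs with the alpha V chain, and Itgb2 (1.36 ± 0.21), the common leukocyte beta chain, were also higher. Itgb7, a homing chain, had 9.70, 18.7 and 14.3 CPM in lining against 129.8, 108 and 104 in BMDM (-2.94 ± 0.34, adjusted p = 2.7e-05), and Itga6, a laminin receptor chain, 147, 152 and 196 CPM in lining against 337, 364 and 296 in BMDM (-1.01 ± 0.21, adjusted p = 0.00219). Itgal, the LFA-1 alpha chain, was lower by 1.87 on the log2 scale, and Itga8 had 0, 0.764 and 0 CPM in lining against 16.4, 19.2 and 18.8 in BMDM (-5.31 ± 0.84). With Itgb2 higher and Itgal lower, chains that form a common receptor differed in sign.

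Immediate early genes, transcribed within minutes of a stimulus and also of tissue handling, were higher in lining. Of 26, all tested, 25 were higher and 0 lower, with a median log2 fold change of 4.48. Their summed level was 10248, 15016 and 14288 CPM in lining A, B and C and 1023 to 1071 in BMDM. The transcription factor gene Egr1 had 637, 843 and 765 CPM in lining against 0.346, 0.0994 and 0.231 in BMDM (11.60 ± 0.40, adjusted p = 1.5e-09). Fosb, a partner in the AP-1 complex, had 582, 979 and 1109 CPM in lining against 1.51, 2.58 and 1.98 in BMDM (8.78 ± 0.46, adjusted p = 1.66e-07). Nr4a3, an orphan nuclear receptor, had 14.5, 51.5 and 59.7 CPM in lining and 0, 0 and 0.231 in BMDM (8.91 ± 1.48, 8.32 without BMDM G), and Ccn1, a matricellular protein, had 24.2, 23.4 and 36.8 CPM in lining and 0 in every BMDM library, at least 559.6-fold higher (at least 360.3 and 373 without BMDM G or I). For 24 of the 26 genes the groups did not overlap (63.1% of all genes tested did not), and lining A had the lowest sum of its group.

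Heat shock genes, another sign of handling, did not move together. Of 15, all tested, 4 were higher and 4 lower (median -0.20), near the shares over all genes tested (23.1% and 20.5%). With limma-voom and a spread per group 7 were lower. The stress-inducible chaperone genes Hspa1a, with 139.7, 671 and 507 CPM in lining against 1.51, 1.79 and 3.55 in BMDM (7.59 ± 0.93, adjusted p = 0.000531), and Hspa1b (6.86 ± 0.96) were higher, lowest in lining A, and since they are near-identical copies their reads may be split between them. Hspb1, a small heat shock protein, had 0.485, 14.5 and 23.7 CPM in lining and 0 in BMDM, at least 308-fold higher (at least 198 and 205 without BMDM G or I). Other chaperone genes were lower, among them Hsp90aa1 with 52.4, 142 and 123 CPM in lining against 401, 379 and 362 in BMDM (-1.83 ± 0.43) and the mitochondrial Hspd1 with 72.7, 67.7 and 86.4 CPM in lining against 247, 251 and 226 in BMDM (-1.68 ± 0.16). The labels do not describe the digestion of the tissue, and handling and cell type cannot be told apart in these values.

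Inhibitors that limit inflammatory signalling were more often higher than lower. Of 22, all tested, 13 were higher and 1 lower (median 2.24; 23.1% and 20.5% of all genes tested were), and 8 were not called. Socs3, which blocks cytokine receptors, had 239.6, 344 and 329.6 CPM in lining against 1.86, 2.09 and 1.80 in BMDM (7.31 ± 0.22, adjusted p = 1.08e-09). Dusp1, a phosphatase of stress kinases, had 811, 946 and 1146 CPM in lining against 14.6, 12.2 and 11.8 in BMDM (6.23 ± 0.21), and Nfkbiz, a nuclear regulator of NF-kappa-B targets, 323, 583 and 592 CPM in lining against 10.2, 8.4 and 9.91 in BMDM (5.71 ± 0.51). Zfp36, which destabilises cytokine transcripts, had 1082, 1943 and 1837 CPM in lining against 47.8, 49.1 and 44.5 in BMDM (5.10 ± 0.35, adjusted p = 6.64e-07). Dusp1, Zfp36 and Socs3 are also on the immediate early list. The lower member was Tnip1 (-0.70 ± 0.22), and its call was lost without lining C, BMDM G or BMDM I (highest adjusted p = 0.0638).

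Transcripts of inflammatory cytokines were more often higher in lining. Of 22 listed genes 18 were tested, 11 were higher and 1 lower (median 1.86; 7 higher without BMDM G), where 23.1% and 20.5% of all genes tested were. Il1b, which encodes interleukin 1 beta, had 90.2, 199.6 and 419 CPM in lining against 0.216, 0.149 and 0.184 in BMDM (10.24 ± 1.62, adjusted p = 0.00243, 9.54 without lining C). The call of Il1b was lost with limma-voom (adjusted p = 0.1). Il1a had 10.2, 14.2 and 54.4 CPM in lining against 0.216, 0.0994 and 0.231 in BMDM (7.06 ± 1.64, 5.99 without lining C), and its call was lost without BMDM G, BMDM H or BMDM I (highest adjusted p = 0.0626). The neutrophil-attracting chemokine gene Cxcl2 had 133, 363 and 463 CPM in lining against 0.908, 0.745 and 1.80 in BMDM (8.10 ± 1.11, adjusted p = 0.000988), and Cxcl1 had 41.7, 41.8 and 84.9 CPM in lining and 2 BMDM counts (1602, interval 442 to 13251). Lining A was the lowest and lining C the highest of its group for these 4 genes. Ccl5, a T cell chemokine, was the lower member, with 0 counts in lining and 5.92, 7.40 and 6.41 CPM in BMDM, at least 33.2-fold lower.

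Of 24 chemokine ligand genes 23 were tested, 11 were higher and 2 lower (median 1.88; 23.1% and 20.5% of all genes tested were). Ccl2, the main attractant of monocytes, overlapped between the groups (-0.28 ± 0.34, adjusted p = 0.537). Ccl9 had 281, 359 and 419 CPM in lining against 483, 499 and 517 in BMDM (-0.50 ± 0.16, adjusted p = 0.0223), and its call was lost without lining A, BMDM G, BMDM H or BMDM I (highest adjusted p = 0.0597). Of 19 chemotactic receptor genes 16 were tested, 10 were higher and 1 lower (median 1.89; 23.1% and 20.5% of all genes tested were). Cmklr1, the chemerin receptor, had 417, 339 and 279 CPM in lining against 1.25, 1.19 and 1.75 in BMDM (7.93 ± 0.32, adjusted p = 5.82e-09). Ccr1, a receptor of inflammatory CC chemokines, had 432, 356 and 445 CPM in lining against 8, 8.15 and 6.46 in BMDM (5.77 ± 0.22), Ccrl2, which presents chemerin, 64.0, 153 and 150.2 CPM in lining against 5.02, 4.32 and 5.35 in BMDM (4.65 ± 0.89), and S1pr1, the sphingosine phosphate receptor, 307, 312 and 211 CPM in lining against 59.0, 54.0 and 51.1 in BMDM (2.34 ± 0.21). C5ar1 was the lower member. C5ar2 and Cxcr3 were not called. Both were called lower with DESeq2, with limma-voom (also with a spread per group) and with only the 6 compared libraries. The same held with plain library totals and without interstitial library D or F (adjusted p = 0.0126 to 0.0476 over these settings).

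Sensors of microbes had both directions. Of 19, all tested, 8 were higher and 3 lower (median 0.17; 23.1% and 20.5% of all genes tested were), and 3 to 8 were higher with a library left out. Fewer than in the full set, by over 1.5 times, passed without lining B or any BMDM library. Tlr2, the receptor for bacterial lipopeptide, had 501, 723 and 702 CPM in lining against 73.5, 69.8 and 68.1 in BMDM (3.19 ± 0.23, adjusted p = 4.6e-07). Nod1, a cytosolic sensor of peptidoglycan, had 17.0, 28.9 and 32.7 CPM in lining against 5.28, 5.41 and 7.01 in BMDM (2.16 ± 0.30). Lower were the DNA sensor Cgas, with 2.42, 7.25 and 6.38 CPM in lining against 38.7, 38.4 and 40.0 in BMDM (-2.77 ± 0.35), the adaptor gene Myd88 (-0.86 ± 0.16, adjusted p = 0.000831) and Tlr4, the receptor for lipopolysaccharide, with 75.2, 72.2 and 75.8 CPM in lining against 107, 98.2 and 106 in BMDM (-0.48 ± 0.15, adjusted p = 0.0220). The call of Tlr4 was lost without BMDM G or BMDM I (highest adjusted p = 0.0806). Tlr1 (0.17 ± 0.44) and Tlr3 (-0.29 ± 0.34) did not pass (adjusted p = 0.780 and 0.533).

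Transcription factor genes of macrophages were more often higher in lining. Of 34 listed 33 were tested, 21 were higher and 5 lower (median 1.04). Klf4, a regulator of monocyte and macrophage states, had 726, 698 and 816 CPM in lining against 30.1, 29.5 and 33.3 in BMDM (4.59 ± 0.15, adjusted p = 1.37e-09). Irf4, a factor downstream of interleukin 4, had 50.4, 59.1 and 93.9 CPM in lining against 2.16, 1.84 and 1.38 in BMDM (5.23 ± 0.68, adjusted p = 0.000404), and Nr4a1, an orphan nuclear receptor that is also an immediate early gene, 571, 1082 and 814 CPM in lining against 6.75, 6.71 and 7.61 in BMDM (6.87 ± 0.72). The lower members included the inhibitors of differentiation Id1 and Id3, targets of BMP signalling. Id1 had 1.94, 0.0954 and 0 CPM in lining against 49.3, 56.8 and 39.8 in BMDM (-7.00 ± 0.89, -5.84 without lining B and a ratio of 637 without lining A) and Id3 3.88, 22.2 and 11.3 CPM in lining against 73.6, 86.1 and 68.4 in BMDM (-2.48 ± 0.46, -3.33 without lining B). Irf7, an interferon-induced factor, was also lower (-2.27 ± 0.29).

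Genes of the circadian clock were higher for the most part. Of 17 genes, all tested, 14 were higher and 1 lower (median 2.48). Nr1d1, the REV-ERB-alpha repressor, had 94.6, 193 and 148 CPM in lining against 3.20, 2.24 and 2.49 in BMDM (5.78 ± 0.28, adjusted p = 1.86e-08). Dbp, an output factor of the clock, had 127, 89.4 and 70.2 CPM in lining against 3.93, 4.07 and 4.20 in BMDM (4.54 ± 0.71), Per2, a core repressor, 82.0, 53.4 and 25.5 CPM in lining against 2.68, 3.08 and 2.26 in BMDM (4.31 ± 0.49), and Ciart 22.3, 19.8 and 28.5 CPM in lining against 1.47, 1.64 and 1.75 in BMDM (3.84 ± 0.45). Klf9, which glucocorticoid induces, had 111, 43.6 and 43.6 CPM in lining against 4.63, 3.73 and 4.15 in BMDM (3.96 ± 0.38, 3.35 without lining A). The lower member was Npas2, with 0, 0 and 0.375 CPM, 1 count, in lining and 2.29, 1.84 and 1.48 in BMDM, a ratio of 28.6 (interval 5.03 to 1137, adjusted p = 0.0361). The call of Npas2 was lost without lining A, lining B, BMDM G, BMDM H or BMDM I (highest adjusted p = 0.143), and it had too few counts to test with BMDM counts thinned to the lining depth. The labels give no hour of collection for either group.

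Growth factor and receptor genes were also more often higher. Of 27, all tested, 15 were higher and 3 lower (median 1.62). Pdgfc, a growth factor for fibroblasts, had 145, 121 and 104 CPM in lining against 0.822, 1.34 and 1.24 in BMDM (6.76 ± 0.28, adjusted p = 6.33e-09). Bmp2, a bone morphogenetic protein, had 39.3, 49.4 and 48.4 CPM in lining against 0.130, 0.0994 and 0.0922 in BMDM (8.59 ± 0.56, adjusted p = 2.06e-07), and Fgf2, a fibroblast growth factor, 62.6, 42.2 and 52.9 CPM in lining and 3 BMDM counts (1014, interval 346 to 4928, 1958 without BMDM G). Ednrb, the endothelin B receptor, had 23.3, 35.5 and 56.7 CPM in lining against 2.29, 1.44 and 1.43 in BMDM (4.47 ± 0.49). The lower members included Kdr, the VEGF receptor 2, with 3.39, 1.145 and 0.375 CPM in lining against 45.2, 49.0 and 43.7 in BMDM (-5.02 ± 0.63, -5.64 without lining A), and Vegfb (-0.95 ± 0.22). Csf1, the gene for MCSF itself, had 13.1, 17.8 and 4.51 CPM in lining against 4.11, 3.92 and 3.46 in BMDM and did not pass (1.66 ± 0.98, adjusted p = 0.204), but passed with only the 6 compared libraries or without interstitial library D (adjusted p = 0.00930 to 0.0136).

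Of 21 genes of TGF-beta signalling 18 were tested, 10 were higher and 1 lower (median 1.51). Tgfbr2, the receptor that binds the ligand, had 1179.5, 886 and 658 CPM in lining against 169, 169.6 and 186 in BMDM (2.38 ± 0.27, adjusted p = 2.89e-05). The transducer Smad3 had 60.1, 48.2 and 43.6 CPM in lining against 9.21, 8.45 and 8.85 in BMDM (2.51 ± 0.23), and Ski, a corepressor, 787, 781 and 638 CPM in lining against 179.9, 186 and 174 in BMDM (2.03 ± 0.14). The lower member was Smad6, an inhibitor of BMP signalling, with 2.91, 4.49 and 1.13 CPM in lining against 23.0, 27.4 and 18 in BMDM (-2.88 ± 0.72, -3.58 without lining B). Smad6, Id1 and Id3, all targets of BMP signals, were lower in lining, and the ligand gene Bmp2 was higher there. Id2 was not called, but was called lower with only the 6 compared libraries or without interstitial library D (adjusted p = 0.0309 and 0.0461). The part of BMP signalling in these values was not tested.

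**Figure D3:**
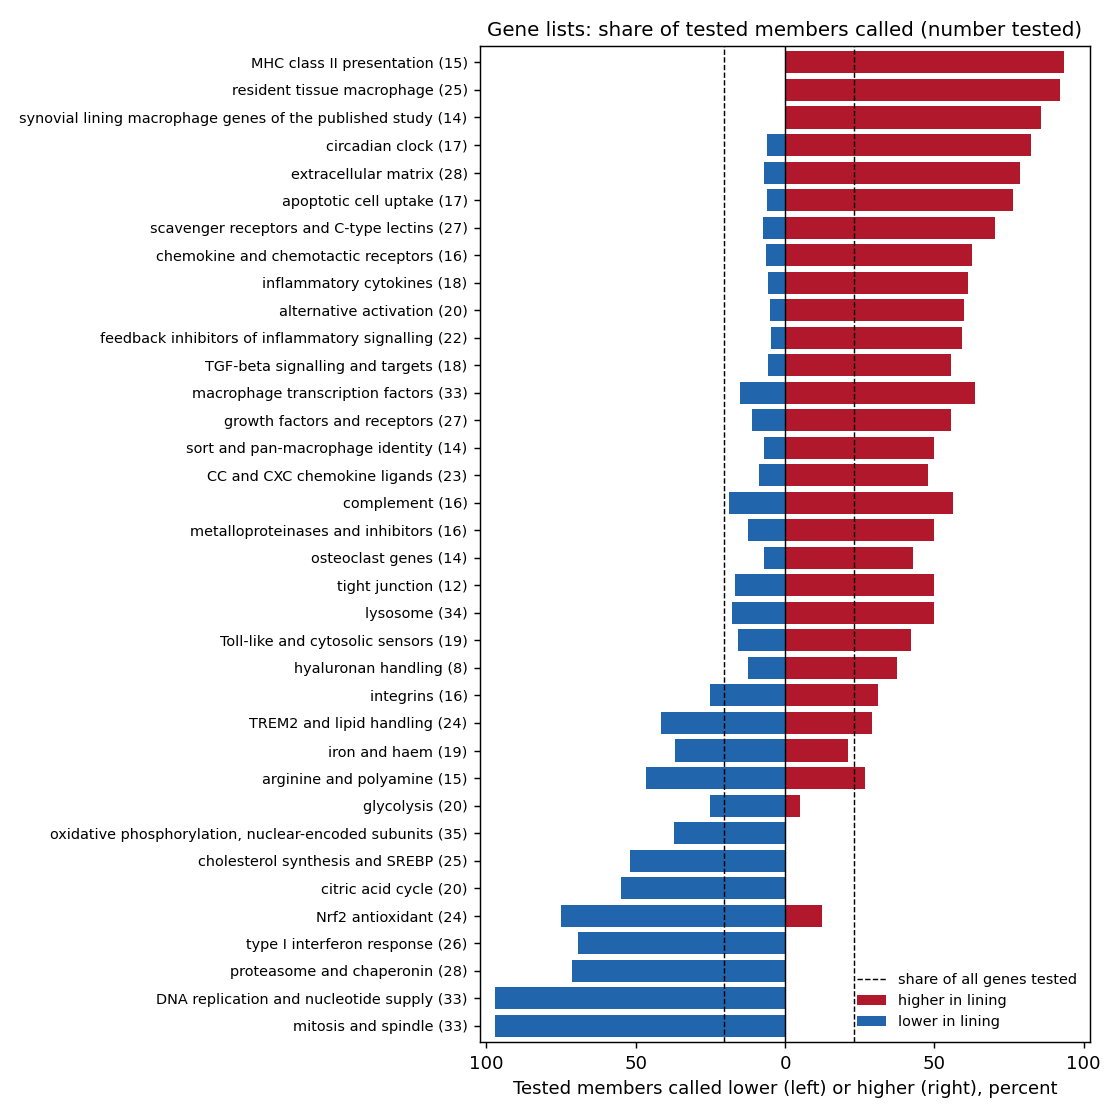
Share of the tested members of each of 36 gene lists called lower (blue, left) or higher (red, right) in lining, in percent, with the number tested in parentheses. Dashed lines mark the share of all genes tested, 20.5% lower and 23.1% higher. Class II presentation and resident macrophage genes lie at the top, and DNA replication and mitosis genes at the bottom.

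Cell cycle genes were lower in lining almost without exception. DNA replication genes build and load the helicase, copy the strands and supply nucleotides. Of 33, all tested, 32 were lower and 0 higher, 31 of them at least 4-fold, with a median log2 fold change of -2.71 (20.5% of all genes tested were lower, 6.00% at least 4-fold). Rrm2, the regulated subunit of ribonucleotide reductase, had 14.1, 22.6 and 27.4 CPM in lining against 282, 267 and 293 in BMDM (-3.69 ± 0.29, adjusted p = 9.66e-07). Cdc45, part of the replicative helicase, had 2.91, 4.49 and 6.38 CPM in lining against 61.7, 55.8 and 62.8 in BMDM (-3.69 ± 0.34), and Cdc6, a helicase loader, 1.45, 3.91 and 4.13 CPM in lining against 49.3, 48.3 and 46.4 in BMDM (-3.82 ± 0.46). Orc1, a subunit of the origin recognition complex, had 0, 0.191 and 2.63 CPM in lining against 14.8, 16.3 and 14.9 in BMDM (-4.31 ± 1.27, -3.46 without lining B and a ratio of 96.0 without lining C), and its call was lost without lining B, BMDM G, BMDM H or BMDM I (highest adjusted p = 0.0742). Of 33 genes of mitosis and the spindle, all tested, 32 were lower and 0 higher, 31 at least 4-fold (median -3.58). The checkpoint kinase gene Bub1 had 1.45, 6.78 and 6.01 CPM in lining against 137, 129 and 136 in BMDM (-4.65 ± 0.58, adjusted p = 0.000134). Ccnb1, the mitotic cyclin B1, had 1.45, 4.96 and 9.39 CPM in lining against 121, 119.9 and 109.7 in BMDM (-4.44 ± 0.74), Nuf2, a kinetochore protein, 1.94, 5.82 and 6.38 CPM in lining against 111, 107 and 113 in BMDM (-4.44 ± 0.42), and Plk1, the polo-like kinase, 2.91, 7.54 and 5.26 CPM in lining against 108, 128 and 119.6 in BMDM (-4.35 ± 0.35). In all 33 genes of each list the groups did not overlap, as in 63.1% of all genes tested. The members that did not pass were Rfc4, a clamp loader subunit (-1.40 ± 0.59, adjusted p = 0.0755, -2.06 without lining C), and Cenpf, a kinetochore protein (-2.88 ± 1.01, adjusted p = 0.0525, -3.83 without lining C). Rfc4 was called lower with limma-voom, with limma-voom and a spread per group, with only the 6 compared libraries, without lining C or without interstitial library D (adjusted p = 0.000257 to 0.0263). Cenpf was called lower with limma-voom, with limma-voom and a spread per group, with a filter on mean CPM, with only the 6 compared libraries, with plain library totals, without lining A, without lining C, without interstitial library D, without interstitial library E or without interstitial library F (adjusted p = 0.00449 to 0.0482). The summed level of the mitosis list was 309, 618 and 844 CPM in lining A, B and C and 6457 to 6734 in BMDM. Lining A was the lowest of its group, and no sum was at 0.

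**Figure D4:**
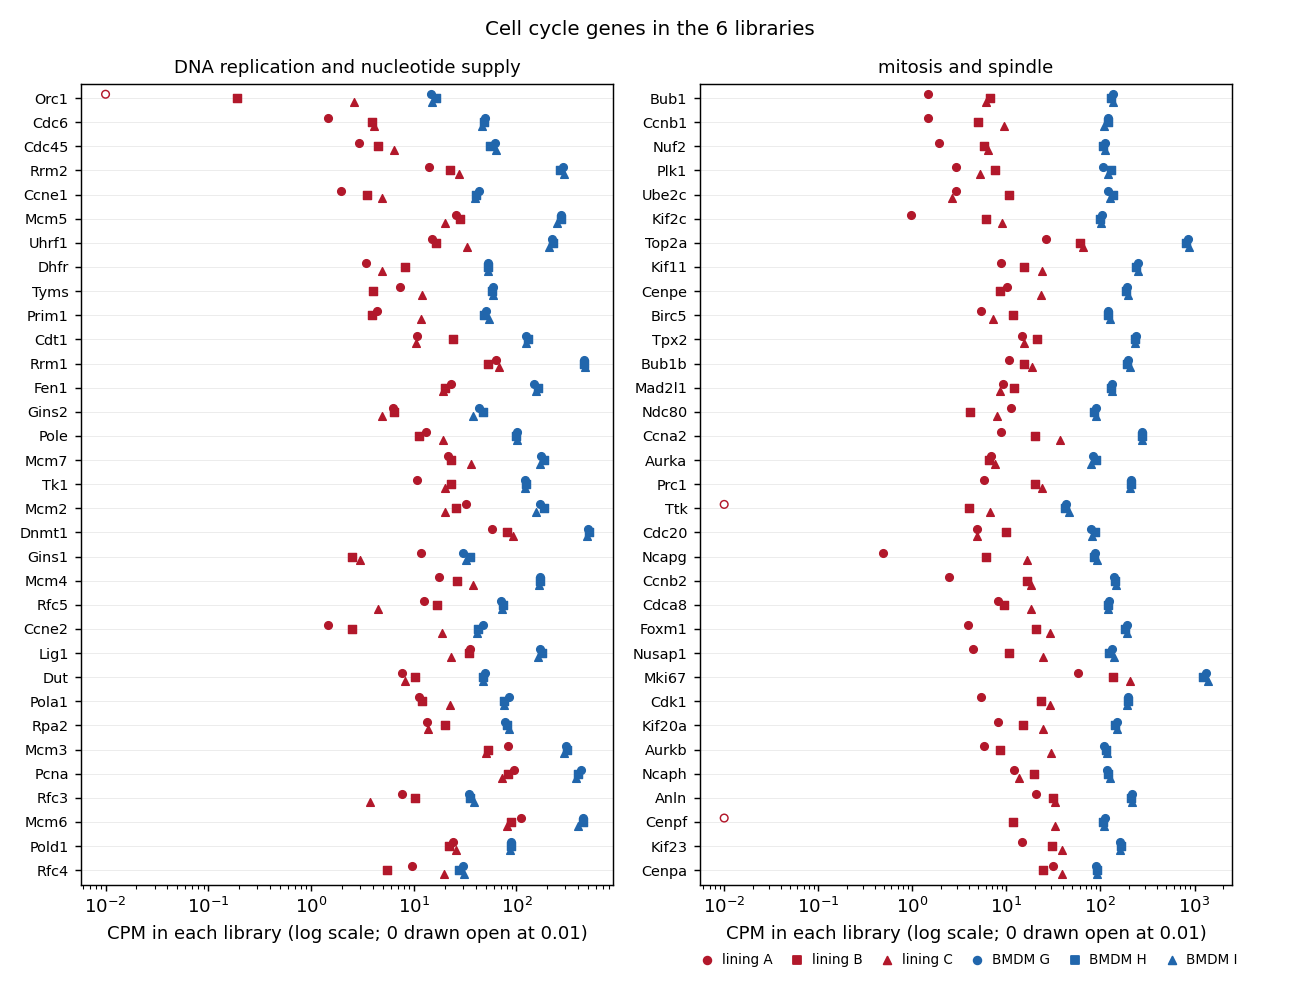
Level in each library (CPM, log scale) of the 33 DNA replication genes (left) and 33 mitosis genes (right), ordered by log2 fold change. Red symbols are the lining libraries, blue symbols the BMDM libraries, and open symbols at 0.01 stand for 0. In every gene all 3 BMDM libraries lie above all 3 lining libraries.

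Because these genes moved together, their promoters were read for the motifs known to time them: the CCAAT box bound by NF-Y, the cell cycle homology region (CHR, letters TTTGAA) of genes that peak in mitosis, and the E2F site (TTTGGCGC, TTTCCCGC or TTTCGCGC) of genes that peak in S phase. Each was searched on both strands over 250 bases before to 50 after the start in a RefSeq table of GRCm38.p6 promoters. The E2F and CHR letters share their opening TTT and were counted separately. Of 33 mitosis genes 28 were matched, with 29 promoters, of which 72.4% held CCAAT, 72.4% the CHR letters and 6.90% an E2F site. Of 33 replication genes 27 were matched, with 34 promoters, of which 55.9%, 11.8% and 38.2% did. Over all 32851 promoters the shares were 37.4%, 17.9% and 1.84%. CCAAT was also common in lists outside the cell cycle: 78.3% of 23 promoters of cholesterol synthesis genes and 56.2% of 16 promoters of heat shock genes held it. Motifs of other lists were searched the same way. SREBP letters were in 4.35% of the cholesterol synthesis promoters, against 1.24% of all promoters. Heat shock element letters were in 25% of the heat shock promoters, against 0.603%. AP-1 letters were in 0 of 28 promoters of immediate early genes, against 7.81%. A match of letters is a description and no evidence of binding in these cells.

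The stretches of 150 bases before the start of 4 genes show the layouts. Bub1 is among the genes with the largest difference, and Cdk1, Cdc20 and Mcm6 were chosen after their values and promoters were seen, for the motifs they hold. They are written 5′ to 3′ on the strand of the gene, all minus, with the motifs above in capitals (ATTGG is CCAAT on the other strand, and in Mcm6 overlapping E2F matches run together). The stretches lie at chr2:127831860-127832009, chr10:69352913-69353062, chr4:118437344-118437493 and chr1:128359706-128359855.
Bub1: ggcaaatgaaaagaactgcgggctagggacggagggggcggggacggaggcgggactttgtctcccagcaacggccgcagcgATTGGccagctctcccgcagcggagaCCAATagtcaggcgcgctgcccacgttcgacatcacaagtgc
Cdk1: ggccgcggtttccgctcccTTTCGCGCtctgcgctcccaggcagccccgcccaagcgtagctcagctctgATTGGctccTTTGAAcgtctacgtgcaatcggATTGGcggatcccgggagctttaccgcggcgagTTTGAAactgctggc
Cdc20: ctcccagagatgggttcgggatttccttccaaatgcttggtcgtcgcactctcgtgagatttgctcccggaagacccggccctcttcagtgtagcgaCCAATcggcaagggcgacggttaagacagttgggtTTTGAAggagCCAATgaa
Mcm6: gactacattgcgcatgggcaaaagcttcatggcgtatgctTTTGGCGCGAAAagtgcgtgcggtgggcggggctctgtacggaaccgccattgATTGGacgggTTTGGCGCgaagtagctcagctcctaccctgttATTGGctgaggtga
Bub1 shows CCAAT boxes on either strand and no CHR or E2F letters. Cdk1, the kinase that drives entry into mitosis, holds all 3 kinds, and its level was 5.33, 23.3 and 29.3 CPM in lining against 195, 195 and 193 in BMDM (-3.28 ± 0.70, adjusted p = 0.00665). Cdc20, which activates the destruction of cyclin B, shows CCAAT and CHR letters, and had 4.85, 9.93 and 4.88 against 80.1, 87.7 and 80.5 CPM (-3.53 ± 0.79, adjusted p = 0.00683, -4.13 without lining B). Mcm6, a helicase subunit, shows E2F and CCAAT letters without a CHR, and had 112, 88.6 and 81.1 against 443, 446 and 401 CPM (-2.20 ± 0.17, adjusted p = 9.66e-07). Lining A was the highest of its group for Mcm6 and the lowest for Cdk1.

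Most genes of the type I interferon response, the antiviral programme, were lower in lining. Of 27 listed 26 were tested, 0 were higher and 18 lower (median -1.60). Oas3 is on this list. Isg15, a ubiquitin-like modifier, had 0, 5.54 and 0.751 CPM in lining against 53.5, 48.4 and 46.6 in BMDM (-4.06 ± 0.78, adjusted p = 0.00198, a ratio of 117 without lining B). Usp18, which removes it, had 1.94, 18.9 and 6.76 CPM in lining against 78.6, 64.9 and 76.6 in BMDM (-2.80 ± 0.59, -4.05 without lining B), and Irf7, the amplifier of the response, 19.9, 33.4 and 19.9 CPM in lining against 127, 121 and 116 in BMDM (-2.27 ± 0.29, adjusted p = 6.7e-05). Ifi44 had 1 count in lining against 14.1, 10.3 and 12.5 CPM in BMDM, 189-fold lower by count ratio (interval 33.8 to 7462, 58.6 without lining B and at least 51.9 without lining C). Ifit1 had 1.94, 13.6 and 0 CPM in lining against 36.8, 33.5 and 34.0 in BMDM and Ifit3 11.2, 26.1 and 1.13 CPM in lining against 31.7, 26.3 and 31.1 in BMDM. Both were highest in lining B within that group and did not pass (-2.46 ± 1.03 and -1.11 ± 0.65, adjusted p = 0.0840 and 0.196), but passed without lining B (-5.35 and -2.39, adjusted p = 0.00710 and 0.0217). Ifit1 was called lower with limma-voom, with limma-voom and a spread per group, with only the 6 compared libraries, without lining B, without interstitial library D or without interstitial library F (adjusted p = 0.00710 to 0.0457).

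Cholesterol synthesis genes, which SREBP drives when sterol is low, were lower in part. Of 26 listed 25 were tested, 0 were higher and 13 lower (median -1.02). Lss, which closes the sterol rings, had 24.2, 19.2 and 8.26 CPM in lining against 90.9, 92.3 and 92.3 in BMDM (-2.41 ± 0.29, adjusted p = 3.21e-05), the squalene synthase gene Fdft1 13.1, 14.9 and 0.375 CPM in lining against 54.8, 59.0 and 58.8 in BMDM (-2.53 ± 0.62, -3.23 without lining B) and Acat2 10.7, 5.63 and 12.8 CPM in lining against 45.1, 45.7 and 48.8 in BMDM (-2.33 ± 0.34). The cholesterol exporter Abca1 was higher in lining, as given above. A further exporter, Abcg1, was not called. It was called lower with only the 6 compared libraries or without interstitial library D (adjusted p = 0.0144 and 0.0215). The part of sterol supply in these values was not tested.

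Genes of central metabolism were lower or not called, with 1 exception. Of 20 glycolysis genes, all tested, 1 was higher and 5 lower (median -0.94). The share lower was near the 20.5% of all genes tested, and the count moved from 3 without lining B, BMDM G, H or I to 15 with only the 6 compared libraries. Pkm, the pyruvate kinase, had 975, 901 and 1082 CPM in lining against 3919, 3726 and 3849 in BMDM (-1.96 ± 0.41, adjusted p = 0.00425), and Hk3, a myeloid hexokinase, 35.4, 43.4 and 35.7 CPM in lining against 378, 404 and 371 in BMDM (-3.32 ± 0.16, adjusted p = 2.16e-08). The higher member was Pfkfb3, an activator of glycolytic flux, with 132, 164 and 172 CPM in lining against 43.8, 40.6 and 41.1 in BMDM (1.90 ± 0.17, adjusted p = 2.93e-06). Slc2a1, the glucose transporter, had 24.7, 38.2 and 65.3 CPM in lining against 99.4, 99.9 and 99.5 in BMDM and did not pass (-1.22 ± 1.29, adjusted p = 0.489), but passed with only the 6 compared libraries or without interstitial library F (adjusted p = 0.00565 to 0.0219). Of 20 citric acid cycle genes 11 were lower and 0 higher (median -0.45; 7 lower without BMDM H), among them Cs, the citrate synthase, with 203, 177 and 164 CPM in lining against 367, 364 and 349.6 in BMDM (-0.99 ± 0.13, adjusted p = 8.39e-05), and Mdh2 (-0.97 ± 0.14). Of 35 nuclear genes of oxidative phosphorylation 13 were lower and 0 higher (median -0.29), and the lowest count with a library left out was 4, each loss of over 1.5 times coming without BMDM G, H or I. The citric acid cycle and oxidative phosphorylation counts stand beside 20.5% lower and 23.1% higher over all genes tested. Atp5j, a subunit of the ATP synthase, was lower by 0.82 on the log2 scale (SE 0.13), while Ndufa4 did not pass (-0.15 ± 0.18, adjusted p = 0.510).

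Against these nuclear genes, most measured transcripts of the mitochondrial genome were higher. Of 13 listed 7 were tested, 6 were higher and 0 lower (median 1.13), and the 6 not tested, such as mt-Co2, were listed at 0 in both groups. mt-Nd1 had 2032, 1512 and 2180.2 CPM in lining against 715, 675 and 574 in BMDM (1.54 ± 0.21, adjusted p = 0.000118), mt-Nd2 921, 619 and 919 CPM in lining against 290.3, 248 and 206 in BMDM (1.72 ± 0.25) and mt-Cytb 1606, 1392 and 2122 CPM in lining against 886, 786 and 673 in BMDM (1.13 ± 0.20). Most ribosomal protein genes went the other way: of 45 listed 44 were tested, 30 were lower and 0 higher (median -0.46; 18 lower without BMDM H). Rpsa had 418, 459 and 466 CPM in lining against 852, 842 and 815 in BMDM (-0.90 ± 0.15, adjusted p = 0.000567) and Rps2 413, 356 and 255 CPM in lining against 677, 747 and 689 in BMDM (-1.05 ± 0.21, adjusted p = 0.00170). Most protein turnover genes were lower too: of 28 subunits of the proteasome and of the CCT chaperonin, which folds actin and tubulin, 20 were lower and 0 higher (median -0.63). Over all genes tested 23.1% were higher and 20.5% lower, the shares beside the mitochondrial, ribosomal and turnover counts. Cct7 had 119.8, 127 and 101 CPM in lining against 288, 281 and 269 in BMDM (-1.27 ± 0.14, adjusted p = 1.53e-05) and Cct4 74.2, 109.7 and 123 CPM in lining against 237, 236 and 238 in BMDM (-1.21 ± 0.18). Shares of mitochondrial and ribosomal RNA are also read as signs of RNA quality, and their part in the other results was not tested.

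Most antioxidant genes under Nrf2, which detoxify electrophiles and regenerate glutathione and NADPH, were lower. Of 24, all tested, 18 were lower and 3 higher (median -1.33), and all 24 did not overlap between the groups (63.1% of all genes tested did not). Nqo1, a quinone reductase, had 0, 0.382 and 0 CPM in lining against 19.8, 18.6 and 18.5 in BMDM (-6.24 ± 0.76, adjusted p = 4.26e-05), and was at least 30.0-fold lower without lining B, which held its counts. Prdx1, a peroxidase, had 340.0, 325 and 324 CPM in lining against 1469.8, 1384 and 1387 in BMDM (-2.10 ± 0.14, adjusted p = 3.32e-07). Gclm, a subunit of the enzyme that starts glutathione synthesis, had 42.2, 35.5 and 42.8 CPM in lining against 209.6, 198 and 196 in BMDM (-2.33 ± 0.17), and Me1, the malic enzyme, 0.97, 1.53 and 1.88 CPM in lining against 27.1, 25.8 and 25.6 in BMDM (-4.12 ± 0.50). The higher members were Gpx1, a glutathione peroxidase, with 1134, 946 and 845 CPM in lining against 417, 428 and 428 in BMDM (1.2 ± 0.15, adjusted p = 4.85e-05), Mgst1, a membrane glutathione transferase, with 107, 50.9 and 54.8 CPM in lining against 12.9, 11.9 and 11 in BMDM (2.55 ± 0.37), and the manganese superoxide dismutase Sod2 (0.39 ± 0.14). The call of Sod2 was lost without lining B, lining C, BMDM G, BMDM H or BMDM I (highest adjusted p = 0.204) and with no filter beyond 1 count (adjusted p = 0.3) and with plain library totals (adjusted p = 0.122).

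Iron genes had both directions. Of 20 listed 19 were tested, 4 were higher and 7 lower (median -0.40), where 23.1% and 20.5% of all genes tested were. The ferritin genes Fth1 and Ftl1, given above, were lower, and so were the exporters Flvcr1, for haem, with 39.8, 27.6 and 21.4 CPM in lining against 63.6, 60.9 and 60.5 in BMDM (-1.07 ± 0.24, adjusted p = 0.00371), and Slc40a1, for iron, with 10.2, 22.3 and 9.76 CPM in lining against 36.8, 40.6 and 28.6 in BMDM (-1.23 ± 0.35, adjusted p = 0.0140, -1.87 without lining B). The call of Slc40a1 was lost without lining A or lining C (highest adjusted p = 0.0553) and with limma-voom (adjusted p = 0.0624) and with limma-voom and a spread per group (adjusted p = 0.163). Higher members beside Cd163 included Hfe, a regulator of iron uptake, with 149.9, 142 and 129 CPM in lining against 34.9, 33.8 and 34.3 in BMDM (2.03 ± 0.19, adjusted p = 4.69e-06), and Trf, the gene for transferrin, with 13.6, 19.5 and 34.9 CPM in lining against 1.99, 1.89 and 2.72 in BMDM (3.36 ± 0.53). The remaining higher member, the metal transporter gene Slc11a1, had 293, 264 and 221 CPM in lining against 181, 179 and 167 in BMDM (0.57 ± 0.18, adjusted p = 0.0231). The call of Slc11a1 was lost without lining A, lining B, BMDM G, BMDM H or BMDM I (highest adjusted p = 0.113) and with no filter beyond 1 count (adjusted p = 0.0641) and with plain library totals (adjusted p = 0.0527). Polyamines are small cations that growing cells need. Of 17 arginine and polyamine genes 15 were tested, 4 were higher and 7 lower (median -0.74; 23.1% and 20.5% of all genes tested were). Sms, the spermine synthase, had 15.5, 13.3 and 14.3 CPM in lining against 53.5, 57.1 and 57.2 in BMDM (-1.98 ± 0.22, adjusted p = 2.05e-05), and Azin1, which spares the first enzyme of the pathway from decay, 51.9, 69.4 and 94.2 CPM in lining against 256, 241 and 226 in BMDM (-1.74 ± 0.23). Amd1, which supplies the aminopropyl group, had 25.2, 20.1 and 25.2 CPM in lining against 68.0, 57.0 and 62.2 in BMDM (-1.42 ± 0.20), while Sat1, the acetylase that starts polyamine breakdown, had 445, 535 and 698 CPM in lining against 213, 207 and 227 in BMDM (1.37 ± 0.18, adjusted p = 8.65e-05).

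Markers of other cells that a sort or a culture could hold were read from 15 lists. Monocyte genes summed to 12803 to 16533 CPM in lining and 277 to 315 in BMDM, but Fn1, a member, made up most of the lining sum. Among defining monocyte genes Ly6c2 had 0, 3.24 and 0 CPM in lining against 2.33, 2.43 and 3.04 in BMDM and did not pass (-0.92 ± 1.10, adjusted p = 0.528), with no lining count outside lining B (at least 4.10-fold lower without it, adjusted p = 0.0263). Ace, a gene of patrolling monocytes, had 1.94, 34.5 and 24.4 CPM in lining against 0.0865, 0.0994 and 0.231 in BMDM (7.11 ± 1.04, adjusted p = 0.000173, 6.43 without lining B). Neutrophil genes summed to 25.7 to 65.0 and 66.6 to 79.4 CPM. Of 10 tested 2 were higher and 5 lower (median -3.35, -2.78 with genes at 0 set to their bound), S100a9, a calprotectin subunit, had 0, 2.29 and 1.13 CPM in lining against 17.9, 22.6 and 21.9 in BMDM (-3.80 ± 0.99, a ratio of 32.5 without lining B) and Ly6g was at 0 in lining. Of the T cell genes Cd3g, Cd8a, Cd8b1 and Trbc2 were at 0 in lining, and Cd3e, Cd3d and Trac had counts in 1 lining library each, at 0.485, 0.573 and 0.751 CPM. Cd4, which some macrophages express, had 51.4, 42.4 and 19.9 CPM in lining against 1.90, 2.24 and 1.71 in BMDM (4.28 ± 0.39), and Il7r was lower (-3.65 ± 1.16, -4.91 without lining C). The call of Il7r was lost without lining A, lining B, BMDM G, BMDM H or BMDM I (highest adjusted p = 0.117) and with no filter beyond 1 count (adjusted p = 0.0748). B cell genes summed to 70.3 to 99.9 CPM in lining and 25.2 to 26.5 in BMDM, most of it Ighm, with 68.9, 59.4 and 91.6 CPM in lining against 20.3, 21.1 and 20.6 in BMDM (1.82 ± 0.33, adjusted p = 0.00103), while Ms4a1, which encodes CD20, had 0, 0.286 and 0 CPM in lining.

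Of 4 red cell genes tested 3 were higher, unevenly across lining (median 7.58, 6.18 with genes at 0 set to their bound). Hba-a1, an alpha globin gene, had 113, 9.16 and 41.7 CPM in lining against 1.25, 0.695 and 4.61 in BMDM and did not pass (4.56 ± 1.95, adjusted p = 0.106, 3.38 without lining A and 5.66 without BMDM I), but passed with DESeq2, with only the 6 compared libraries, without interstitial library D or without interstitial library E (adjusted p = 0.00524 to 0.0486). Hbb-bs, a beta globin gene, had 31.0, 6.68 and 1.13 CPM in lining and 2 BMDM counts (293, interval 79.5 to 2440.4, 180.4, 460.4 and 195 without lining A, lining B or BMDM I). Endothelial genes summed to 214, 148 and 407 CPM in lining A, B and C and 167 to 178 in BMDM, but the defining Pecam1 and Cdh5 had 0.97, 4.49 and 2.63 and 1.45, 4.77 and 0.375 CPM in lining and did not pass (adjusted p = 0.0561 and 0.220, 1.0 and -0.28 on the log2 scale without lining B). Pecam1 was called higher with DESeq2, with limma-voom and a spread per group, with only the 6 compared libraries, without lining A or without interstitial library D (adjusted p = 0.0299 to 0.0444). Flt1, the VEGF receptor 1, held most of the sum of lining C, with 14.5, 9.73 and 306 CPM in lining against 2.98, 3.53 and 4.24 in BMDM (4.92 ± 2.32, adjusted p = 0.137, 1.66 without lining C), and was called higher with only the 6 compared libraries or without interstitial library F (adjusted p = 0.0114 to 0.0266). Ecscr, an endothelial surface gene, had 158, 96.7 and 49.6 CPM in lining against 0.173, 0.199 and 0.231 in BMDM (8.90 ± 0.61, adjusted p = 4.01e-07). Of 12 endothelial genes tested 3 were higher and 3 lower (median 1.48), near the shares over all genes tested (23.1% and 20.5%). The lower members included Kdr, given above, and Vwf. The call of Vwf was lost without lining A, lining B or any BMDM library (highest adjusted p = 0.0752) and with no filter beyond 1 count (adjusted p = 0.0727). Pericyte genes summed to 695 to 1006 CPM in lining, nearly all of it Cspg4, the NG2 proteoglycan, with 878, 996 and 684 CPM in lining against 80.1, 53.6 and 54.5 in BMDM (3.76 ± 0.58, adjusted p = 0.00124), while Acta2, smooth muscle actin, had 4.36, 1.72 and 2.25 CPM in lining against 0.995, 1.24 and 1.52 in BMDM (1.08 ± 0.74, adjusted p = 0.260). Of 6 pericyte and smooth muscle genes tested 4 were higher, each at least 4-fold, and 0 lower (median 4.25; 23.1% and 20.5% of all genes tested were). Under other settings 1 to 6 were higher. Rgs5 was a higher member, and its call was lost without lining B or any BMDM library (highest adjusted p = 0.182). Schwann cell genes summed to 968 to 1533 CPM in lining, mostly S100b and Pmp22 (0.99 ± 0.21), with the defining Sox10 at 0.668 CPM in lining B and 0 in lining A and C. Mast cell, muscle, keratinocyte, cartilage and bone, and fat lists summed to 3.75 to 35.9 CPM in lining libraries and 4.20 to 53.0 CPM in BMDM. The fat list summed to less in lining, with 24.0 to 32.6 CPM against 46.4 to 53.0. Called higher were 4 of 7 mast cell genes tested, 3 of 6 muscle, 3 of 4 cartilage and bone, 1 of 3 fat and 0 of 2 keratinocyte genes. In the mast cell and fat lists 1 gene each was lower. The count higher in each of these lists moved under other filters. Comp, a cartilage matrix gene, had 16, 23.2 and 22.2 CPM in lining against 1.08, 1.54 and 1.43 in BMDM (3.92 ± 0.57). The part of such cells in the lining values was not tested.

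**Figure D5:**
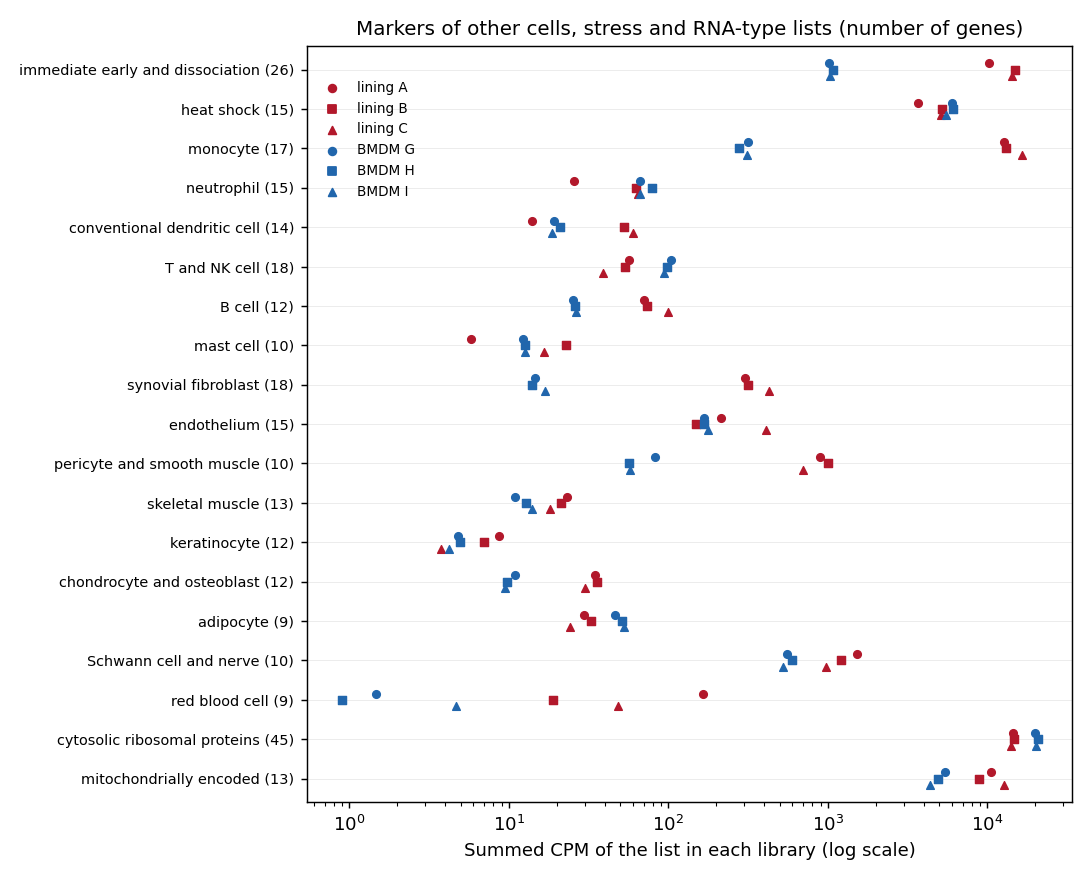
Summed level (CPM, log scale) in each library of the immediate early, heat shock, ribosomal and mitochondrial lists and of marker lists for 15 other cell types, with the number of genes in parentheses. Red symbols are the lining libraries and blue symbols the BMDM libraries. Fibroblast markers lie at 301 to 429.5 CPM in lining and 14.0 to 16.8 in BMDM.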

How the data were processed

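The deposited table holds raw counts of reads per gene for 9 libraries. Per the file headers, the authors counted reads over exons with featureCounts 1.6.1 as a reverse-stranded library against Ensembl release 91 of GRCm38, with no option for reads that map to several places or overlap several genes, so near-identical and overlapping genes can lose reads. Per the submitters' processing notes, the tools also included STAR 2.5.4a with bcl2fastq 2.17.1.14 and cutadapt 1.15, and DESeq2 1.20.0 in R 3.5.0. Per the labels' protocols, RNA was extracted with an RNeasy kit and 500 ng went into TruSeq stranded mRNA libraries read as single ends of 101 bases.

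From these counts, genes passing edgeR's filterByExpr (minimum count 10, total 15) were scaled by TMM and fitted with edgeR 4.0.16 (R 4.3.3) in a robust quasi-likelihood model with 1 mean per group over all 9 libraries. The comparison was lining minus BMDM, tested two-sided. P-values were adjusted over the 12610 genes tested by the method of Benjamini and Hochberg, and a call is an adjusted p under 0.05. The SE is the log2 fold change divided by the root of the F statistic. Where the lower group had no count, the fold is a bound against 3 counts over that group, and with 1 to 3 counts it is a count ratio with an exact (Clopper-Pearson) 95% interval. Floors and intervals need the depth of 2194920 to 22499823 counts per library: 3 counts over a group equal 0.197 CPM in lining and 0.0462 CPM in BMDM.

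Genes were named by a rule: the 10 largest folds each way among called genes without overlap and a mean of at least 100 CPM in the higher group, the 5 largest differences in CPM each way, up to 4 genes each way per list from a mean of 10 CPM, and defining members of the lists. Members named outside it, to complete a short count or as absent markers, were chosen after their values were seen, among them Igf1, Ccl5, H2-Oa, Npas2, Flt1, Rfc4, Cenpf, Cdk1, Cdc20, Mcm6 and Xist. Members and lists were chosen with earlier results of these data known. Alternatives were other scaling factors, DESeq2 1.42.0, limma-voom (limma 3.58.1), other filters, only the 6 compared libraries, thinned BMDM counts and leaving out each library. The scripts were tested on simulated data. Of 53465 gene identifiers 53274 were matched to symbols. Promoters came from a RefSeq table of GRCm38.p6. The interstitial libraries were not compared here. Some genes that the rule names are not reported here.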

Additional observations from a re-analysis of the deposited data

How the results depend on the processing

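The count of 5490 called genes was 5486 with relative log expression factors, 5473 with upper-quartile factors, 6004 with DESeq2, 6670 with limma-voom, 6986 with limma-voom and a spread per group, 5712 with no filter beyond 1 count, 5374 with a filter on mean CPM, 6583 with only the 6 compared libraries, 4679 with BMDM counts thinned to the lining depth and 3945 to 6406 with a library left out. Leaving out a library gave 2061 to 3174 higher and 1851 to 3232 lower genes, and 1014 to 1457 higher and 609 to 873 lower genes of at least 4-fold. No gene called in both had opposite signs, and 71.7% to 99.3% of the calls were shared. Plain library totals and the omission of 1 interstitial library at a time were added after seeing the data. With plain totals 5645 genes were called, the median of all genes moved by -0.11, and 46.1% of the calls were higher against 53.0%. The median moved by -0.13 with no filter. Of 262 named genes 33 lost a call under some alternative and 16 gained one, and none reversed. The cause of these changes was not tested. No paired analysis was possible because the libraries carry letters that the groups do not share. Depth limits the lining group, whose libraries A and C are the smallest of the 6.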

Other observations

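Within the lining group several genes differed widely between libraries. Arg1 had 0, 2.86 and 1249 CPM in lining A, B and C, Retnla 6.79, 11.7 and 424 CPM and Flt1 14.5, 9.73 and 306 CPM, each highest in lining C. Mmp9 had 2.42, 26.9 and 42.1 CPM and Flt3, a receptor of dendritic cell precursors, 0, 12.9 and 11.3 CPM, lowest in lining A. The globin gene Hba-a1 had 113, 9.16 and 41.7 CPM, highest in lining A. These genes were chosen after their values were seen.

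The osteoclast fusion gene Dcstamp had 0, 0.954 and 1.13 CPM in lining against 5.88, 5.46 and 5.81 in BMDM. It did not pass (-2.84 ± 1.19, adjusted p = 0.0714), but passed with DESeq2, with limma-voom, with limma-voom and a spread per group, with only the 6 compared libraries, without interstitial library D or without interstitial library F (adjusted p = 0.00276 to 0.0470).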
